A study of Drosophila melanogaster with 3 samples.

Results

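The cytochrome P450 genes of Drosophila melanogaster were examined in OSS cells, a stable line that the labels trace to follicular stem cells of the ovary and mark by Fas III. Members were all genes whose symbol in the platform annotation began with Cyp, digits and a lower-case letter and that had a probe set of their own. There were 81 such genes among 11982 named genes. Where a gene had several probe sets, the one with the highest mean was used. Total RNA from 3 samples of 1 group was hybridised to Affymetrix arrays as biotinylated cRNA. The cells grew exponentially in M3 medium with serum, insulin, glutathione and fly extract and received no other treatment, so the data hold no comparison between conditions. Nothing in the labels tells separate cultures from repeats of 1 culture. SDs (n = 3) and p-values therefore cover the spread among the arrays alone, and part of it may be technical.

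Cytochromes P450 are haem-thiolate enzymes that insert 1 oxygen atom into a substrate with electrons from a partner protein. Insect P450s fall into the CYP2, CYP3, CYP4 and mitochondrial clans. CYP2 and mitochondrial members include the enzymes that build and inactivate the steroid hormone ecdysone, whereas many CYP3 and CYP4 members act on plant toxins, insecticides, fatty acids and hydrocarbons. In the fly, fat body, midgut and Malpighian tubule are the classical sites of the latter enzymes. In the ovary, somatic follicle cells are a source of ecdysteroids.

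Values are log2 levels per probe set as deposited, between a shared lowest value of 2.39 and 14.75. Background was set at 2.49, the 95th percentile of 112 odorant and gustatory receptor genes, taken as unused in these cells. A gene was called above background when its 3 values exceeded that level at an adjusted p under 0.05 (limma, one-sided, Benjamini-Hochberg adjustment over all 11982 named genes), and a stricter call used a level 1 log2 unit higher. By this call 1 of the receptor genes, Or43b at 2.57, was itself above background. The highest of them, Gr39a, measured 2.79 on every array and was not called. Probe sets differ in affinity, so a higher value of one gene than of another does not measure more transcript. Many genes (59.8%) had the same value on all 3 arrays to every deposited digit. Such genes have no spread of their own, took the spread of the other genes and were hard to call in this test. Urod, at 6.90 on every array, missed the stricter call (adjusted p = 0.054). Counts of means over the background level, with no test, are therefore given beside the calls. Other genes had the same value on all arrays but 1, among them Cyp4e2, Cyp12e1, Cyp6a23, spo, Fdx1, Fdx2 and ftz-f1. Such ties lower the SD, so the p-values of these genes may overstate the agreement among arrays. Of the ovarian somatic markers, tj at 6.83 ± 0.69, dec at 6.90 ± 0.28, zfh1 at 5.10 ± 0.25 and Egfr at 4.22 were above background, and slbo and cas were at the lowest value. Of 5 germline markers 0 had a mean over the background level.

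Most P450 genes did not exceed background. In bulk RNA of this kind, few expressing cells and little RNA per cell cannot be told apart. Of the 81, 12 (14.8%) were called above background, whereas the call was made for 35.3% of the 11870 named genes outside the receptor list. At the stricter level 7 P450 genes (8.64%) were called, against 20.6% of genes; means over that level, without a test, were found for 9 (11.1%) and 29.3%. Means over the background level, without a test, were found for 22 P450 genes (27.2%) and for 49.3% of genes. The lowest value on all arrays was shared by 35 P450 genes (43.2%) and by 27.9% of genes. The median level was 2.39 for the P450 genes and 2.47 for all genes. The 12 genes lay in 8 of 45 subfamilies, and in 19 subfamilies every measured member was at the lowest value. Of the other 69 P450 genes, 0 were called below background (limma; 1 at an unadjusted p under 0.05). That count rests on how identical values are treated: with SDs of 0 kept in the fit 57 were called below.

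**Figure D1:**
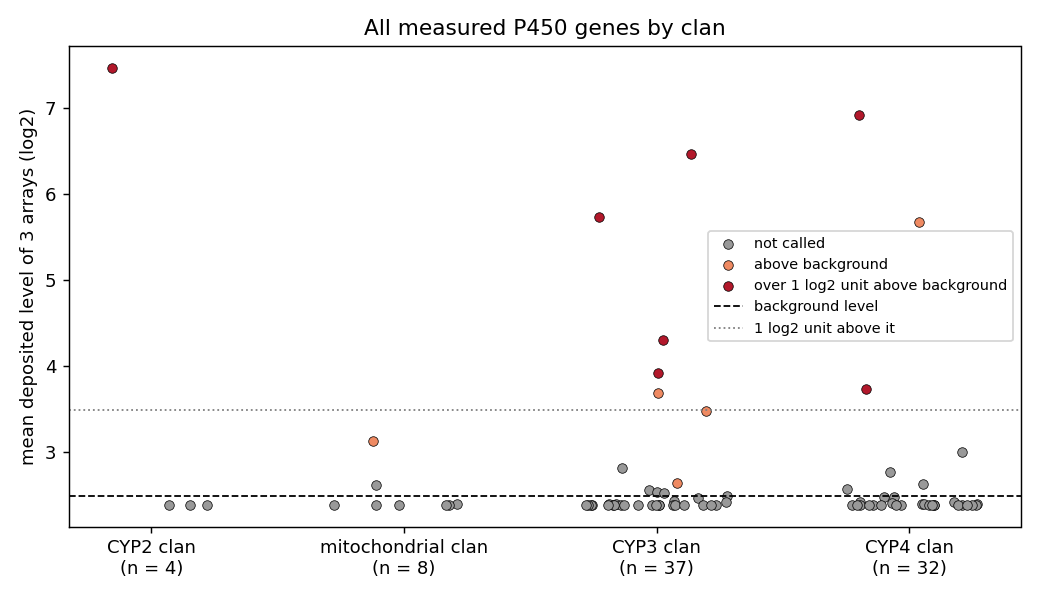
Mean deposited level (log2, y axis) of each of the 81 P450 genes, grouped by clan, with points spread sideways for legibility. Dashed and dotted lines mark the background level of 2.49 and the level 1 log2 unit higher. Points gather at and just over the lowest value of 2.39, which 35 genes share, and each clan holds at least 1 gene called above background.

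Cyp18a1, which encodes the 26-hydroxylase that inactivates ecdysone and 20-hydroxyecdysone, was called at the stricter level. Its values were 7.83, 8.01 and 6.56 on arrays 1, 2 and 3, a mean of 7.47 ± 0.79, which was 4.98 log2 units above background (limma, adjusted p = 0.0041; 0.011 at the stricter level). All 3 values lay far over the background level, with array 3 the lowest. The gene's other probe set measured 5.71, 5.65 and 5.34, again lowest on array 3. The 2 probe sets fell short of arrays 1 and 2 by unequal amounts there, with differences of -1.37 and -0.34 log2 units between array 3 and the mean of the others. Cyp18a1 was the only gene of the CYP2 clan called among 4 measured; Cyp303a1, needed for sensory bristles, Cyp304a1 and Cyp305a1 were at the lowest value.

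The genes for ecdysone synthesis, most of which carry Halloween names rather than Cyp symbols, were mostly at background. Of 9 measured genes, 1 was called above background. That gene was spo, which acts in the early "black box" steps, with 3.52, 3.45 and 3.52 (mean 3.50 ± 0.042; limma, adjusted p = 0.00035). Its probe set is named as sharing sequence with other transcripts. The spo paralog spok measured 2.39. The 25-hydroxylase gene phantom (phtm here) measured 2.39, as did dib and sad, the genes of the next hydroxylases. The gene shd, whose product makes 20-hydroxyecdysone, measured 2.55 on every array with one probe set and the lowest value with the other, and was not called. The oxygenase gene nvd measured 2.44, and the dehydrogenase gene sro and Cyp6t3, a P450 gene of the larval ecdysone gland, were at the lowest value. On the side of the response, 5 of 9 measured genes were called. Among all named genes outside the receptor list the share was 35.3%. Neither these lists nor those given below were tested against that share or against each other. The receptor partner usp measured 5.15 ± 0.057, the ecdysone importer Oatp74D 4.25 ± 0.32 and Hr39 4.67 ± 0.33. The early gene br measured 3.89 ± 0.21 and ftz-f1 3.22 ± 0.14. The Hr39 probe set is named, like that of spo, as sharing sequence with other transcripts. For Hr39, br and ftz-f1 these values are from the highest of several probe sets. The others had means of 2.62, 2.47 and 2.39 for Hr39, of 3.69, 2.84, 2.39 and 2.39 for br, and of 2.42 for ftz-f1. EcR itself measured 2.79 on array 1 and 2.51 on the others and was not called. Eip78C measured 2.39, and Hr3 and Hr4 were at the lowest value; Eip75B and Eip74EF were not analysed here.

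Among juvenile hormone genes 2 of 10 measured were called above background, beside 35.3% of genes outside the receptor list. They were the epoxide hydrolase gene Jheh2 at 5.00 ± 0.57 and Cyp6u1. Cyp6u1 measured 4.003, 3.887 and 3.876, a mean of 3.92 ± 0.070 (limma, adjusted p = 0.00044; 0.0076 at the stricter level). The 3 values were close together and all lay over the stricter level. Cyp6g2, a P450 gene of the corpus allatum, measured 2.39. The methyltransferase gene jhamt and the receptor gene gce were at the lowest value, Kr-h1 measured 2.40 and the receptor gene Met 2.45 ± 0.017. Jhe measured 2.44, Jhedup was at the lowest value and the coactivator gene tai measured 2.76 on every array without being called. Jheh1 and Jheh3 were not analysed here.

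**Figure D2:**
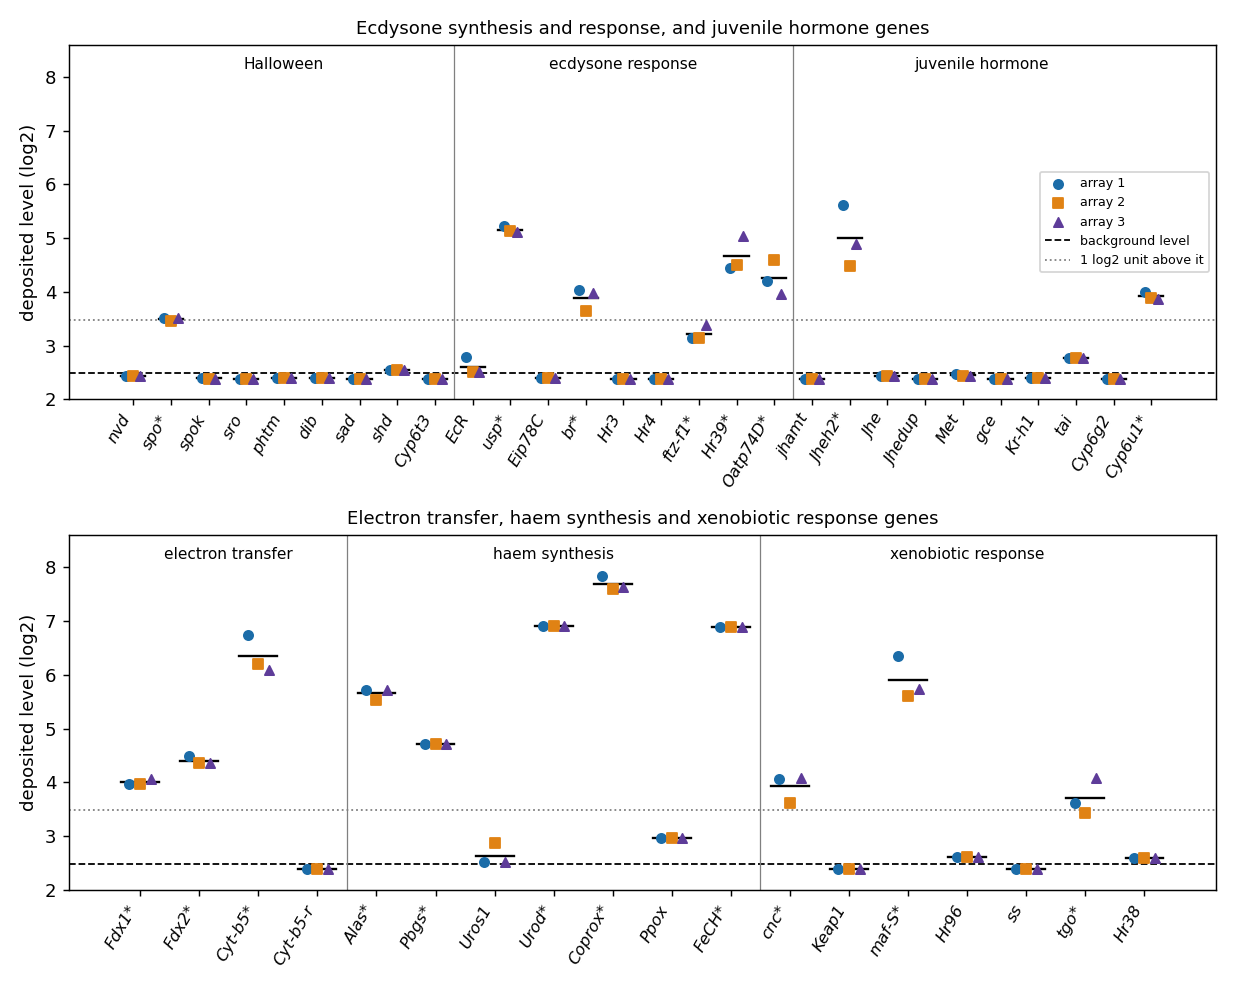
Deposited level (log2, y axis) on each of the 3 arrays for genes of hormone pathways (top) and of P450 partners and regulators (bottom). Black bars are means, dashed and dotted lines the background level and the level 1 log2 unit higher, and asterisks mark genes called above background. In the ecdysone synthesis list spo alone is called, while 5 genes of the haem list and 3 of the electron transfer list are.

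The CYP3 clan, which holds the CYP6, CYP9 and CYP28 families, had 7 of 37 measured genes above background, 6 of them in CYP6. The share was 18.9%, beside 35.3% of genes outside the receptor list. Cyp6a13 measured 6.64, 6.30 and 6.45, a mean of 6.46 ± 0.17 (limma, adjusted p = 0.00033; 0.0010 at the stricter level). Its neighbour Cyp6a14 measured 4.30, 4.15 and 4.45, a mean of 4.30 ± 0.15 (adjusted p = 0.0011; 0.010 at the stricter level). Both genes were well over background on every array, with array 2 the lowest for each. Cyp9c1 measured 5.99, 5.58 and 5.63, a mean of 5.73 ± 0.22 (adjusted p = 0.00075; 0.0027 at the stricter level), and was the only one of 5 CYP9 genes called. Cyp6d4 measured 3.58, 3.57 and 3.92, a mean of 3.69 ± 0.20, and passed against background (adjusted p = 0.0045) but not at the stricter level (0.28). Cyp6a17, which has a role in temperature preference, measured 3.38, 3.27 and 3.80, a mean of 3.48 ± 0.28 (adjusted p = 0.015). Cyp6a23, its close paralog, measured 2.68, 2.61 and 2.61, only 0.15 log2 units above background (adjusted p = 0.017). Probe sets of close paralogs may share signal, and this was not tested.

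Apart from Cyp6a17, the CYP3 genes named here for a known function other than hormone metabolism had means under the background level. Cyp6g1, whose overexpression gives resistance to DDT and neonicotinoids, and the inducible detoxification genes Cyp6a2 and Cyp6a8 were at the lowest value. Cyp6a20, linked to male aggression, measured 2.39, and Cyp310a1 measured 2.43. The 4 CYP28 genes measured 2.39. In the Cyp6a subfamily, 4 of 13 genes were called, 2 more (Cyp6a22 at 2.56 and Cyp6a9 at 2.52) had means just over the background level, and 3 were at the lowest value. In Cyp6d, Cyp6d2 measured 2.54 and Cyp6d5 2.49 ± 0.029 beside the called Cyp6d4. Cyp9f2 measured 2.81 on every array and was not called (adjusted p = 0.12).

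The CYP4 clan had 3 of 32 measured genes (9.38%) above background, beside 35.3% of genes outside the receptor list. Of the 3 genes, 2 were those that differed most between arrays among the P450 genes. Cyp4p2 measured 6.58, 6.17 and 8.01, a mean of 6.92 ± 0.97 (limma, adjusted p = 0.0084; 0.024 at the stricter level). Cyp4p1 measured 4.81, 5.03 and 7.20, a mean of 5.68 ± 1.32 (adjusted p = 0.036; 0.12 at the stricter level). Both were highest on array 3, by 1.64 and 2.28 log2 units over the mean of arrays 1 and 2. The remaining Cyp4p gene, Cyp4p3, measured 2.58 on every array and was not called. Cyp4e2 measured 3.73, 3.73 and 3.75, a mean of 3.74 ± 0.016 (limma, adjusted p = 9.7e-05, and 0.0024 at the stricter level). Its values on arrays 1 and 2 were identical, so the small SD and p-value do not show close agreement of all arrays. Cyp4e1 was at the lowest value, and Cyp4e3, linked to pyrethroid tolerance, measured 2.42 ± 0.053. Cyp4d2 at 3.00 and Cyp4d14 at 2.77 were identical on all arrays and were not called (adjusted p = 0.092 and 0.13). Cyp4g1, the oenocyte enzyme that makes cuticular hydrocarbons, and its paralog Cyp4g15 both measured 2.48, just under the background level. Cyp311a1, which acts in lipid metabolism of the midgut, was at the lowest value, and Cyp313a1 at 2.63 had the only mean over background among 6 CYP313 genes.

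**Figure D3:**
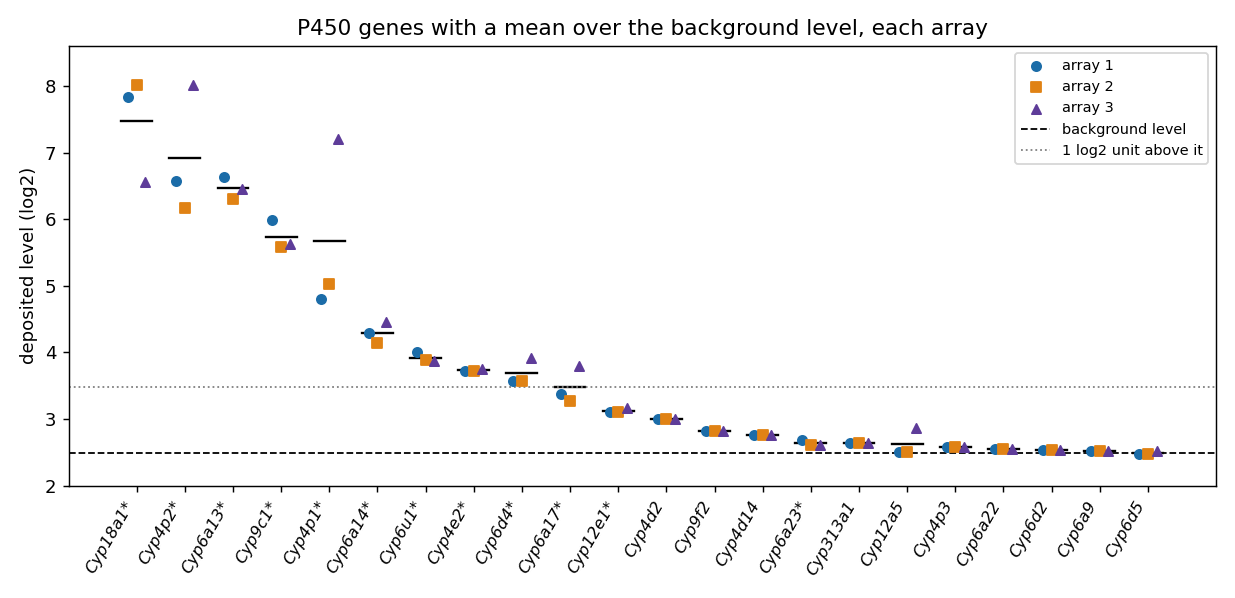
Deposited level (log2, y axis) on each of the 3 arrays for the 22 P450 genes whose mean exceeded the background level, with means as black bars. Asterisks mark the 12 genes called above background. Cyp4p1 and Cyp4p2 stand highest and Cyp18a1 lowest on array 3.

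In the mitochondrial clan 1 of 8 measured genes (12.5%) was called above background, beside 35.3% of genes outside the receptor list. Cyp12e1 measured 3.11, 3.11 and 3.17, a mean of 3.13 ± 0.036 (limma, adjusted p = 0.00062), but its other probe set had a mean of 2.51, close to the background level. Cyp12a5 measured 2.50 on arrays 1 and 2 and 2.86 on array 3 and was not called (adjusted p = 0.32). Cyp12a4, known from lufenuron resistance, Cyp301a1, a gene of adult cuticle formation, and Cyp49a1 were at the lowest value. Cyp12d1-d measured 2.39; it and Cyp12d1-p are near-identical copies, and the probe set annotated to both was at the lowest value.

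Array 3 was set against arrays 1 and 2 for the 3481 genes outside the receptor list whose mean was over 1 log2 unit above background. The median absolute difference between array 3 and the mean of the others was 0.132 log2 units. A difference at least as large as that of Cyp4p1 was found in 4 genes (0.115%), Cyp4p1 included. For Cyp4p2 the number was 38 (1.09%) and for Cyp18a1 it was 72 (2.07%), again with the P450 genes themselves counted. Of the 12 called P450 genes, none of which had identical values on all arrays, 7 were highest and 2 lowest on array 3. Among the 3900 genes outside the receptor list that were called above background and not identical, 39.8% were highest and 21.7% lowest on it. Among the ovarian somatic markers, tj was lowest on array 3, with 7.45, 6.96 and 6.09. The markers dec, with 6.98, 6.58 and 7.13, and zfh1, with 5.01, 4.91 and 5.38, were highest on it. Egfr was identical on all arrays, and slbo and cas were at the lowest value. Marker genes of other tissues known for P450 expression were mostly at or near the lowest value, where differences between arrays cannot show. Over 3 fat body genes the summed level was 7.18 on every array, and over 8 midgut genes it was 19.22. It was 7.17 for 3 Malpighian tubule genes and 7.17 for 3 oenocyte genes. Of these 17 genes 0 had a mean over the background level. The fat body markers Lsp1alpha, Lsp1beta and Lsp1gamma, the tubule marker Uro and the oenocyte marker desatF were not analysed here. Of 4 ecdysone gland genes, mld was above background and highest on array 3, with 4.39, 4.17 and 5.12, and the other genes had means under background. The other mld probe set was at the lowest value. Of 5 hemocyte genes Pxn and crq were above background, a call made for 35.3% of genes outside the receptor list. The crq probe set is named as sharing sequence with other transcripts. Hml and eater were at the lowest value. The other Pxn probe set had a mean of 2.41. With array 3 alone on one side, these differences have no test.

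**Figure D4:**
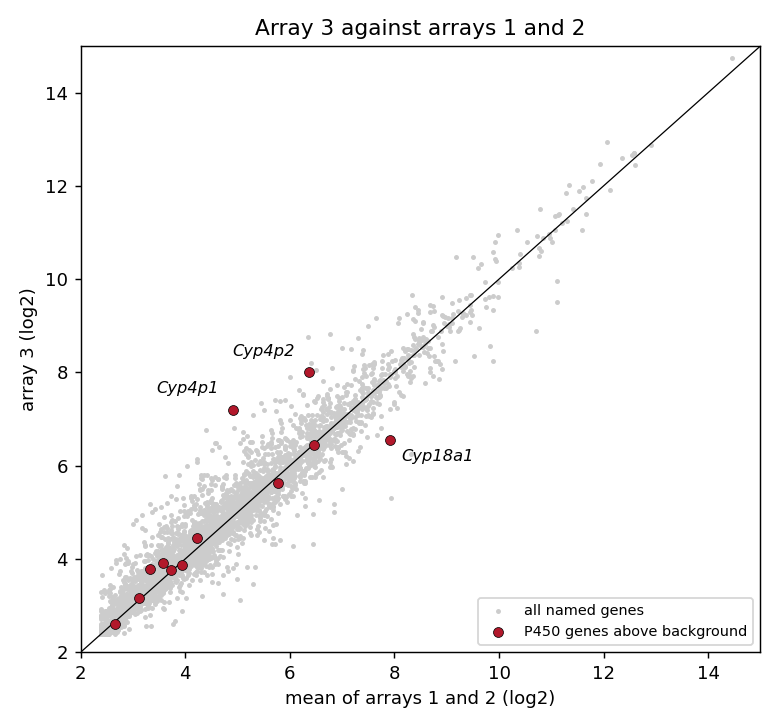
Level on array 3 against the mean of arrays 1 and 2 (both log2) for named genes outside the receptor list in grey and for the 12 called P450 genes in red; the line marks equal levels. Cyp4p1 and Cyp4p2 lie above the line by 2.28 and 1.64, and Cyp18a1 below it with a difference of -1.37.

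Many P450 genes lie side by side on the chromosomes. By the order of protein-coding genes in the RefSeq table, 43 of the 81 genes stood in 16 runs of adjacent P450 genes, Halloween genes included. Of these 43 genes 8 were called above background, and of the 38 genes outside runs 4 were called. The share was 14.8% over all 81 genes and 35.3% over genes outside the receptor list. Genes in and outside runs were not tested against each other. Calls in 3 of the runs came as pairs of direct neighbours: Cyp6a14 with Cyp6a13, Cyp4p2 with Cyp4p1, and Cyp6a17 with Cyp6a23. How often neighbours are both called among all genes was not examined. Cyp6a23, at 2.64, lay under the receptor gene Gr39a at 2.79, and it and Cyp4p1 lost the call in some settings. Close paralogs may also share probe signal, which was not tested. Neighbours also differed within a run. Cyp18a1 lies next to phtm, at 7.47 against a gene not over background, and Cyp4e2 stood between Cyp4ad1 and Cyp4e1, neither of which exceeded background. In the longest run, of 9 genes, Cyp6a19, Cyp6a20, Cyp6a21, Cyp6a8 and Cyp317a1 had means under the background level. The run of Cyp6g1, Cyp6g2 and Cyp6t3 held no signal over background.

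**Figure D5:**
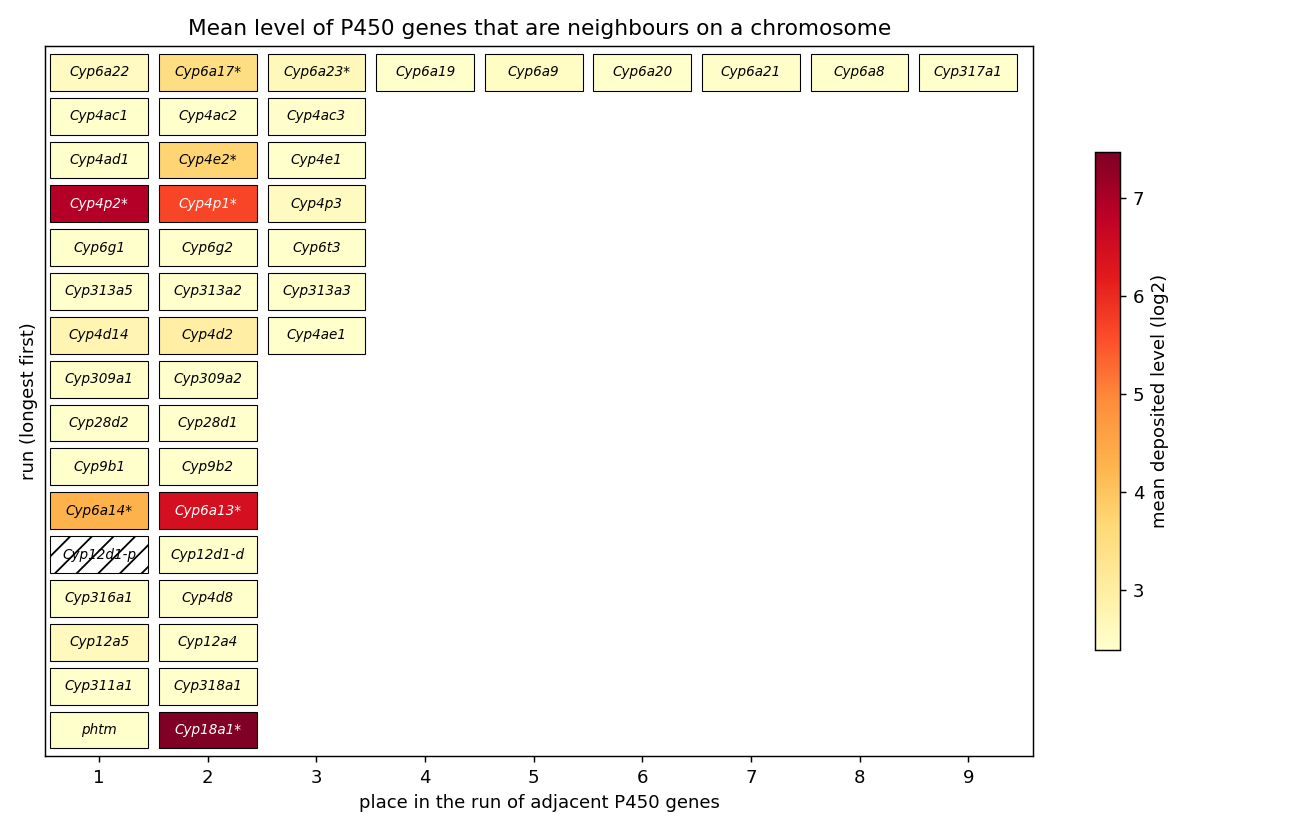
P450 genes that are direct neighbours among protein-coding genes, 1 run per row, coloured by mean deposited level (log2). Asterisks mark genes called above background and hatching a gene without a probe set of its own. Pairs of called neighbours appear in 3 of the 16 runs.

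P450 enzymes depend on electron donors and on haem, and genes of both were measured. Of 4 measured electron transfer genes 3 were called at the stricter level, a call made for 20.6% of genes outside the receptor list. The ferredoxin genes Fdx1 and Fdx2, whose proteins pass electrons in mitochondria, measured 4.01 ± 0.054 and 4.40 ± 0.082. Cyt-b5, the gene of a microsomal electron carrier, measured 6.35 ± 0.35, and Cyt-b5-r 2.39. Cpr, for the microsomal P450 reductase, dare, for the adrenodoxin reductase, and Cyb5r were not analysed here. Of 7 haem synthesis genes 5 were called above background, beside 35.3% of genes outside the receptor list. These were Alas, for the first enzyme, at 5.66 ± 0.11, Pbgs at 4.71 ± 0.0036, Urod at 6.90, Coprox at 7.69 ± 0.13 and the ferrochelatase gene FeCH at 6.89. Other FeCH probe sets had means of 6.04 and 2.42. Ppox at 2.98 and Uros1 at 2.64 ± 0.20 were not called. Among 7 regulators of the xenobiotic response 3 were called above background, beside 35.3% of genes outside the receptor list. They were cnc (the Nrf2 homolog) at 3.93 ± 0.26, its partner maf-S at 5.90 ± 0.40 and tgo at 3.71 ± 0.34. The other cnc probe set had a mean of 2.39, and the one used is named as sharing sequence with other transcripts. The cnc inhibitor gene Keap1 measured 2.39, Hr96 2.60 and Hr38 2.59, and ss was at the lowest value; none of these was called.

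Leaving out 1 array changed several calls. Without array 1, 8 P450 genes were called above background and 3 at the stricter level. Cyp4p1, Cyp4p2 and Cyp6a17 then lost the call although they lay farther above background, by 3.63, 4.599 and 1.05 log2 units, and Cyp6a23 lost it at 0.13. Without array 2, 10 were called and Cyp4p1 and Cyp6a23 were lost, with 3 at the stricter level. Without array 3, 9 were called and Cyp12e1, Cyp4e2 and Cyp6a23 were lost, with Cyp4p1 at 2.43 and Cyp4p2 at 3.88 log2 units above background. Cyp18a1, Cyp6a13, Cyp6d4, Cyp6u1 and Cyp9c1 were above background under every setting tried. Cyp6a14 was above in every setting that included it, but its only probe set was left out when some kinds of probe set were dropped.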

How the data were processed

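Members, lists and tests were chosen with earlier results of these data known. The authors deposited log2 levels for 18952 probe sets on 3 arrays; the log base was taken from the range, and background correction, scaling and summary method are not given in the sources used here. Per the labels, scanner files entered custom scripts. Direction is not at issue in 1 group, and values were kept as deposited, given array medians of 2.399, 2.401 and 2.399. Depth does not apply; the number of arrays limits precision. Pearson correlations between arrays were 0.986 to 0.995.

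Genes were named by the platform annotation (13647 single-gene probe sets, 402 with several genes, the rest unlisted). All 81 P450 genes matched RefSeq (Release 6 plus ISO1 MT) by identifier. Of its 83 protein-coding genes with such symbols, Cyp12d1-p has only a shared probe set and Cyp9f3 was not analysed here. Coordinates and sequences are not given. An intercept-only limma 3.58.1 fit (R 4.3.3) tested each gene one-sided each way against the background level. The prior SD was 0.030 with 0.63 prior degrees of freedom, and identical values took it alone. In simulated data on 11982 genes, the calls recovered 58% of 50 genes placed 0.25 log2 units over background, 72% at 0.5, 88% at 1 and 98% at 2. The placed genes took spreads from genes over background whose values differed between arrays. Genes with identical values were not among them, so this recovery does not apply to such genes.

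Named genes were every P450 gene called, hormone-related and well-known members whatever their value, members with discordant probe sets, and the partner lists; any further gene was picked after seeing its values. Cyp6d1 and Cyp28a1 of that list were not matched. Alternatives concerned the background level, the spread, normalization, probe sets, a low-value filter and each array.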

Additional observations from a re-analysis of the deposited data

Results flagged for a closer look

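The probe set annotated to both shn and Cyp6v1 came to notice because it carried signal outside the gene results. It measured 3.79, 2.91 and 3.09, a mean of 3.27 ± 0.47 (SD, n = 3), over the background level but not called when such probe sets were kept (limma, adjusted p = 0.071). The probe set of Cyp6v1 alone was at the lowest value. Which of the genes gives the signal was not tested.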

How the results depend on the processing

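No paired analysis was possible because the series has a single group. Under 16 alternatives, 1 of them chosen after seeing the data, 8 to 20 P450 genes were above background, and their share stayed under that of all genes in each. The count was 20 with SDs of 0 kept and 20 after quantile normalization; both kept all 12 reported genes and added Cyp4d2, Cyp4d14, Cyp4p3, Cyp9f2, Cyp313a1, Cyp6a22, Cyp6a9 and Cyp6d2, which had identical values on all arrays. With SDs of 0 kept 47.0% of all genes were above. With identical genes given full degrees of freedom, the added alternative, 18 were above. Leaving out 1 array gave 8 to 10 P450 genes above background and 3 to 6 at the stricter level, where all genes numbered 1628 to 1866 against 2448. Only Cyp6a13 and Cyp9c1 passed the stricter level under every setting. Of 419 values for 27 named genes, 13 lost the call above background and 0 gained one. The losses concerned Cyp6a23, Cyp4p1, Cyp4p2, Cyp6a17, Cyp12e1 and Cyp4e2. With probe sets whose names end in _s_at, _x_at or _a_at left out, Cyp12e1 lay 0.021 log2 units above background (limma, adjusted p = 0.30). Without array 3 the remaining values of Cyp12e1 and of Cyp4e2 were identical, as were those of Cyp6a23 without array 1. In those fits these genes took the prior spread alone. Beyond this, the cause of the losses was not tested. Calls below background were made in 39 values, for 14 genes without any call in the reported test. Of all P450 genes, 57 were below with SDs of 0 kept, 53 under the added alternative, 51 with the prior spread as a trend, 21 after quantile normalization and 3 with the highest receptor gene as level.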
